A study of Mus musculus with 2 samples.

Results

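The genes of TGF-beta, BMP, SMAD and Id signalling were compared between mature hepatocytes (MHs) and Sox9+EpCAM- cells of mouse liver. Members were all genes that the array design names as TGF-beta, BMP, GDF or inhibin beta ligands, latent TGF-beta binding proteins (Ltbp), Tgfbi, receptors of the Tgfbr, Bmpr and Acvr families, Smads 1 to 9 and Id1 to Id4. The rule goes by gene name, and it gave 58 of 30153 genes, read by 87 probes on 105 spots. Both groups came from mice that carry Sox9-EGFP, a GFP reporter of Sox9. The MHs were taken from healthy livers by collagenase perfusion and purified on a Percoll gradient, without FACS. For the Sox9+EpCAM- cells, the mice received a diet with DDC, a compound that injures the bile ducts chronically, and liver cells with GFP but without surface EpCAM were taken by FACS. The labels call both samples male, and the sources used here do not state the age of the mice, their number or the days on DDC for these arrays. Each group has 1 array, so no value below has a test or an error between mice, and differences are described by their size. Diet, cell isolation and sex cannot be told apart from cell type as the source of a difference, and fewer cells of a type cannot be told apart from less RNA per cell.

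Ligands of this superfamily bind pairs of type II and type I receptor kinases, which phosphorylate receptor-regulated Smads that join Smad4 and enter the nucleus. TGF-beta and activin ligands act mainly through Smad2 and Smad3, BMPs mainly through Smad1, Smad5 and Smad9, most GDF ligands through either of these branches, and Smad6 and Smad7 inhibit the pathway. In liver, TGF-beta is known for driving matrix deposition by stellate cells and fibroblasts and for restraining hepatocyte growth, BMP signals set hepcidin expression in hepatocytes, and Id genes, which encode inhibitors of basic helix-loop-helix transcription factors, are textbook targets of BMP receptors.

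Intensities are fluorescence values after background subtraction, and differences were taken on the log2 scale after each array was set to its own 75th percentile, which was 741 for MHs and 1110 for Sox9+EpCAM- cells. Equal intensities on both arrays therefore give a log2 difference of -0.58. Over 21875 genes with a difference, the median was -0.12. Scaling to Gapdh moved that median to 0.14 and the deposited table to -0.31, so small differences have no settled direction. The dimmest probe well above background had 27.8 in MHs and 18.4 in Sox9+EpCAM- cells, and a gene below background on 1 array is given as a bound ("at least"). Sox9 itself had 8.87 in MHs, not above background, and 60.7 in Sox9+EpCAM- cells, at least 1.45-fold higher. Xist had 1940 on the MH array and 16.1, not above background, on the Sox9+EpCAM- array, while Ddx3y, Kdm5d, Uty and Eif2s3y of the Y chromosome were above background only on the Sox9+EpCAM- array, which goes against the label male for the MH sample. All 7 hepatocyte markers were well above background on both arrays, and all 7 were lower in Sox9+EpCAM- cells by the scaling used, with Alb at 1.82-fold, Cps1 at 3.31-fold and Tat at 5.51-fold, while Hnf4a, at 1.18-fold, lies in the range without a settled direction. Epcam had 139 and 2770, 13.3-fold higher in the cells sorted as EpCAM-.

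Promoter sequence is shown for the TGF-beta and activin ligands that were over 5-fold higher and for Inhbc, the close neighbour of Inhbe that was not. Each run is the 250 bases before the gene's start as RefSeq places it on GRCm38.p6, written 5′ to 3′ on the strand of the gene. Tgfb2 lies at chr1:186705990-186706239 on the minus strand, Inhba at chr13:16011601-16011850 on the plus strand, Inhbe at chr10:127351849-127352098 on the minus strand and Inhbc at chr10:127370549-127370798 on the minus strand. Capitals mark matches to a TATA box, an E-box, a C/EBP-ATF composite or a Smad box.
Tgfb2: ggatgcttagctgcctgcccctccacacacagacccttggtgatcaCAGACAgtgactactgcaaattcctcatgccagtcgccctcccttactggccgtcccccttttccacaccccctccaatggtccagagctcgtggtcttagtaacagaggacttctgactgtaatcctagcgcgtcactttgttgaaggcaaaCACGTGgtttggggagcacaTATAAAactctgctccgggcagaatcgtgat
Inhba: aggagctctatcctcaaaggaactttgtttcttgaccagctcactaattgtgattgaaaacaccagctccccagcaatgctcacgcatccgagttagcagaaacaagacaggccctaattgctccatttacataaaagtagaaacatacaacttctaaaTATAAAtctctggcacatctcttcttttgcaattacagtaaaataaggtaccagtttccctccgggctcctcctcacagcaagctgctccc
Inhbe: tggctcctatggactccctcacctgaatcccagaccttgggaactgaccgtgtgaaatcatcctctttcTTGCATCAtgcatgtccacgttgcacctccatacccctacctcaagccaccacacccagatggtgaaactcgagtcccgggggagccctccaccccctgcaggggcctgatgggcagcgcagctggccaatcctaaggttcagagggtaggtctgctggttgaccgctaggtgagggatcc
Inhbc: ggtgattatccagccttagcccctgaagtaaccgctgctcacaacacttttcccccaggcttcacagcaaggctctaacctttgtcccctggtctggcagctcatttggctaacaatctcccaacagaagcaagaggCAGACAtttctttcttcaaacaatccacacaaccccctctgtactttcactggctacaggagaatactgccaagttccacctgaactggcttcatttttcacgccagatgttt
The motifs searched on both strands were TATAAA, the E-box CACGTG, the CRE TGACGTCA, the AP-1 site TGANTCA, the C/EBP-ATF composite TGATGNAA, the Smad box CAGACA and the GC-rich Smad site GGCGCC. None of them overlaps another among the matches found. The Tgfb2 promoter held TATAAA 31 bases, CACGTG 51 bases and CAGACA 204 bases before the start. The Inhba promoter held TATAAA 91 bases before the start. The Inhbe promoter held the C/EBP-ATF composite on the opposite strand, read as TTGCATCA, 181 bases before the start, and the Inhbc promoter held CAGACA 113 bases before it. Of 32851 promoters of this length, 12.4% hold TATAAA, 6.02% CACGTG, 3.45% the composite and 17.1% CAGACA, while 1.55% hold the CRE, 6.75% the AP-1 site and 9.59% GGCGCC, which none of these promoters held. Of the 58 members, 43 have a promoter entry in the RefSeq table used, and Tgfb3 is not among them. The promoters of Id3 and Smad3 held none of these letters in this window.

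Most members were measured, and a small set of them, led by TGF-beta and activin ligands, was several-fold higher in Sox9+EpCAM- cells. Both arrays measured 43 of the 58 members, while 5 were above background in Sox9+EpCAM- cells alone, 1 in MHs alone and 9 in neither sample. The measured share of 74.1% on both arrays compares with 63.8% of all genes. At least 4-fold higher were 6 members (Tgfb2, Inhba, Inhbe, Smad3, Tgfb3 and Id3), 10.3% of the 58, against 4.34% of all genes. At least 4-fold lower was 1 member, Gdf2, or 1.72%, against 4.32% of all genes. At 2-fold, 12 members were higher (20.7% against 11.0% of all genes) and 6 lower (10.3% against 13.0%). At 10-fold, 1 member, Tgfb2, was higher, where 1.20% of all genes were, and 0 were lower, where 1.14% of all genes were. The median log2 difference over 47 members with a difference or bound was 0.13, beside -0.12 over all genes, and it was -0.04 in the deposited table. Of the 43 members measured on both arrays, 21 lay within 1.5-fold, a share like that of all genes (9483 of 19232). The plot of levels by role shows each gene on both arrays, and the histogram sets the spread of the members beside that of all genes.

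**Figure D1:**
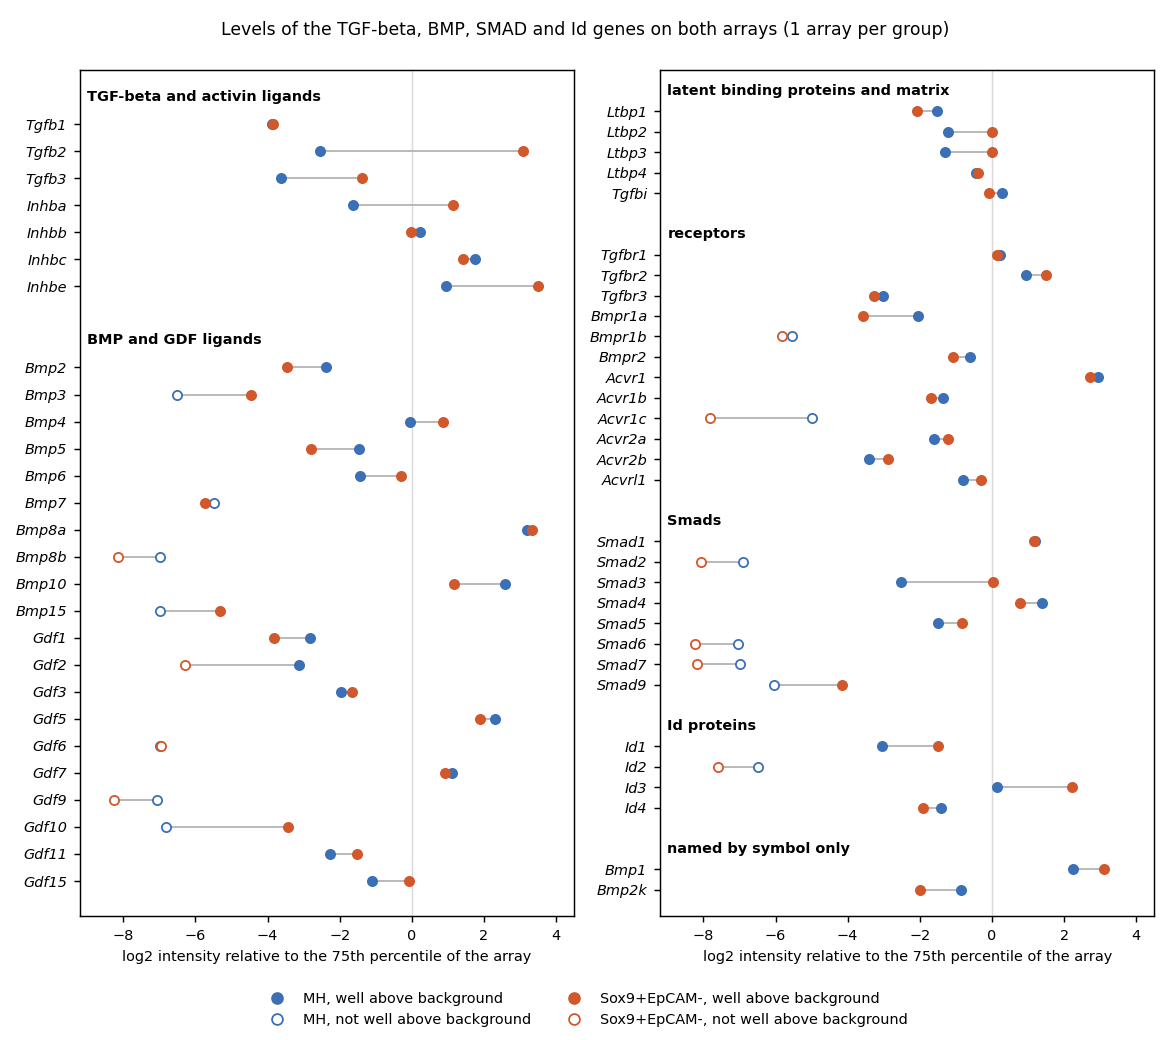
Level of each member on both arrays, as the log2 intensity relative to the 75th percentile of its array, by role. Filled points are well above background and open points are not, a line joins the arrays of a gene, and each point is 1 array. Among genes with both points filled, the longest lines are those of Tgfb2, Inhba, Inhbe, Smad3, Tgfb3 and Id3. Gdf10 and Bmp3 also have long lines, but their MH points are open.

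**Figure D2:**
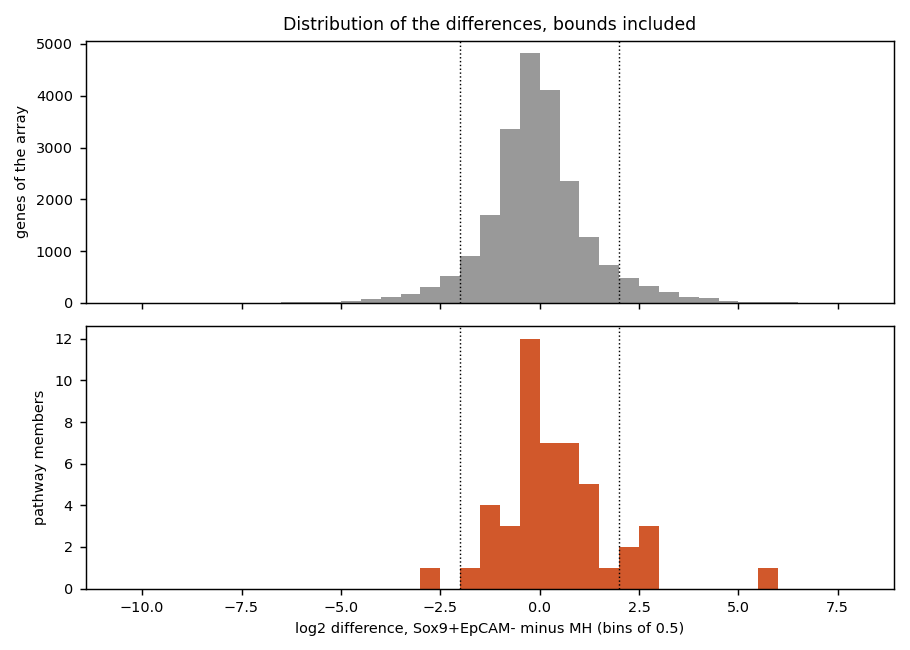
Number of genes per bin of log2 difference, Sox9+EpCAM- minus MH, bounds included, for all genes with a difference (top) and for the members (bottom). Dotted lines mark 4-fold. The 6 members to the right of the upper line and the 1 to the left of the lower line are those named in the text, and the rest lie between the lines.

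Among the 7 ligands of the TGF-beta and activin group, all of them measured on both arrays, 4 (57.1%) were higher in Sox9+EpCAM- cells by at least 4-fold, where 4.34% of all genes were, 0 were lower by that size and the median log2 difference was 2.24. Tgfb2, which encodes TGF-beta 2, had an intensity of 127 in MHs and 9360 in Sox9+EpCAM- cells. It was 49.2-fold higher, a log2 difference of 5.62 that ranked 15 of 19232 genes measured on both arrays. This value comes from a probe at chr1:188449333-188449392 (mm9, minus strand). The other Tgfb2 probe, 3′ of it at chr1:188447534-188447593 on the same strand, had 66.2 and 134, a log2 difference of 0.43. Both probes are assigned to the same transcript by the array design, and the large difference was seen with only 1 of them. The cause of this disagreement was not tested.

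Tgfb3, encoding TGF-beta 3, was printed on 10 spots of each array at a probe at chr12:87397804-87397863. Its spots ran from 50.4 to 76.5 with a median of 58.2 in MHs, and from 388 to 451 with a median of 424 in Sox9+EpCAM- cells. The spots of the arrays did not overlap, and the mean was 4.71-fold higher, a log2 difference of 2.24. After normexp background correction it was 1.37, under the 4-fold line. The SD between spots was 0.21 and 0.08 on the log2 scale, a spread within an array and not between mice. Tgfb1, encoding TGF-beta 1, was also printed on 10 spots. Its median was 46.2 (40.2 to 69.5) in MHs and 77.0 (64 to 86.3) in Sox9+EpCAM- cells. The means of 51.1 and 77.6 give a log2 difference of 0.04 after scaling. Its raw spots overlapped in part, and the scaled levels were close.

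The inhibin beta genes encode the subunits of activins. Inhba, the subunit of activin A, had 238 in MHs and 2430 in Sox9+EpCAM- cells, 6.82-fold higher, at a probe at chr13:16118634-16118693. Inhbe, the liver-rich subunit of activin E, had 1420 and 12500, 5.88-fold higher, at a probe at chr10:126786719-126786778. The other liver-rich subunit gene, Inhbc, had 2480 and 2990, a log2 difference of -0.31. Inhbe and Inhbc lie 4473 bases apart on chromosome 10 (GRCm38.p6), and only Inhbe of this pair was higher after scaling. Inhbb, the subunit of activin B, had 868 and 1100, a log2 difference of -0.24.

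The 20 BMP and GDF ligands were spread to both sides, with 0 at least 4-fold higher, 1 of 20 at least 4-fold lower, where 4.32% of all genes were, and a median log2 difference of 0.13 over the 15 with a difference or bound. Gdf2, which encodes BMP9, a ligand made mainly by stellate cells of the liver, had 84.4 in MHs and 14.1, not above background, in Sox9+EpCAM- cells. The difference was at least 6.87-fold at a probe at chr14:34760077-34760136. After normexp background correction the log2 difference was -1.45, under the 4-fold line. Bmp10, the closest relative of BMP9, had 4440 and 2510, 2.65-fold lower. Bmp5, a relative of BMP6 and BMP7, had 269 and 160, 2.52-fold lower, and Bmp2 had 143 and 100, 2.14-fold lower. These 4 ligands were the ones lower by at least 2-fold, or 20% of the 20, beside 13.0% of all genes. Of them, Bmp2 was at -0.82 on the log2 scale after normexp.

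The ligands higher by at least 2-fold were 3 of 20 (15%), beside 11.0% of all genes. Bmp6, the ligand through which liver iron sets hepcidin, had 276 in MHs and 900 in Sox9+EpCAM- cells, 2.18-fold higher. Gdf15, a stress-induced cytokine distant from the rest of the family, had 347 and 1060, 2.04-fold higher. Gdf10, a relative of BMP3, had 6.54, not above background, and 103, at least 2.47-fold higher. After normexp background correction Bmp6 and Gdf15 were at 0.95 and Gdf10 at 0.32 on the log2 scale, all under 2-fold. Gdf10 and Gdf2 lie 4524 bases apart on chromosome 14, and their differences had opposite signs. Bmp4, an inducer of ventral fate in development, had 717 and 2030, 1.89-fold higher, at 1 of its probes, while its other probe was above background on neither array. Bmp8a had 6810 and 11200 with a log2 difference of 0.13, Gdf5, a joint morphogen, had 3660 and 4140 with -0.41, and Gdf7 had 1600 and 2100 with -0.19. Gdf11 had 155 and 385, 1.66-fold higher, and Gdf3 had 190 and 353, 1.24-fold higher. Bmp3, Bmp7 and Bmp15 were above background on the Sox9+EpCAM- array only, and Bmp3 alone of them gave a bound above 1, of 1.20-fold. Bmp7 was at 20.7 and Bmp15 at 27.6 there. Gdf1, whose transcript also carries Cers1, had 105 and 78.9 and was 1.99-fold lower, with a log2 difference of 0.22 at its other probe. Bmp8b, Gdf6 and Gdf9 were above background on neither array.

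Latent binding proteins hold secreted TGF-beta in the matrix. Ltbp3 had 301 in MHs and 1100 in Sox9+EpCAM- cells, 2.44-fold higher, and its other probe had 7.82, not above background, and 323, at least 7.76-fold higher. Ltbp2, a fibrillin-like matrix protein that does not bind latent TGF-beta, had 318 and 1110, 2.33-fold higher. Both Ltbp3 probes were thus on the same side. For Ltbp1 the probes disagreed: the probe that stands for the gene had 256 and 263, a log2 difference of -0.54, and the probe at chr17:75790530-75790589 had 23.1, not above background, and 790, at least 19.0-fold higher. Ltbp4 had 549 and 846 with a log2 difference of 0.04, and a second probe of the same transcript had 53.3 and 303, 3.79-fold higher. Tgfbi, a matrix protein induced by TGF-beta, had 899 and 1050, a log2 difference of -0.36. The median of the 5 genes was 0.04, and none of them reached 4-fold by the probe that stands for the gene.

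At the probes that stand for the genes, none of the 12 receptor genes reached 4-fold, 9 of the 10 measured on both arrays lay within 1.5-fold, as did 9483 of all 19232 genes measured on both, and the median log2 difference was -0.15 with a range from -1.52 to 0.58. Tgfbr1, the type I receptor of TGF-beta, had 861 in MHs and 1230 in Sox9+EpCAM- cells, which is a log2 difference of -0.07, but 54.3 and 202, or 1.31, at another probe of it. Tgfbr2, its type II partner, had 1410 and 3160, a log2 difference of 0.58, but -0.77 at its other probe. Their direction was therefore not settled. Tgfbr3, the co-receptor betaglycan, had 91.7 and 114, a log2 difference of -0.27. Bmpr1a, a type I receptor for BMPs, was the exception among the receptors, with 179 and 93.3, 2.87-fold lower. Bmpr2, the type II receptor of BMPs, had 485 and 529, a log2 difference of -0.46. Acvrl1, the BMP9 receptor ALK1 known from endothelial cells, had 424 and 898, a log2 difference of 0.50.

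The activin receptors likewise stayed under 1.5-fold at the probes that stand for the genes, though not at all of their other probes. Acvr1, which encodes ALK2 and binds BMPs as well, had 5720 and 7270, a log2 difference of -0.24. Acvr2a, a type II receptor, had 242 and 480, a log2 difference of 0.41, and -1.21 at its other probe. Acvr2b had 69.8 and 150, a log2 difference of 0.52. Acvr1b, the activin type I receptor ALK4, had 291 and 343, a log2 difference of -0.35, while its probe at chr15:101043956-101044015 had 5.63, not above background, and 178, at least 4.27-fold higher. No probe of Acvr1c or Bmpr1b was above background on either array.

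Of the 8 Smads, 1 (12.5%) was at least 4-fold higher and 0 lower, beside 4.34% and 4.32% of all genes. Above background on neither array were 3 (37.5%), beside 22.3% of all genes. Smad3, the effector of TGF-beta and activin, had 130 in MHs and 1130 in Sox9+EpCAM- cells, 5.80-fold higher, at a probe at chr9:63497492-63497551. Its other probe had 41.1 and 112, 1.82-fold higher. Both Smad3 probes were higher, by different amounts, and the median of both, 1.70 on the log2 scale, is below 4-fold. Smad4, the common partner, had 1930 and 1910, a log2 difference of -0.60, and -0.85 at its other probe. Smad5, an effector of BMPs, had 262 and 628, a log2 difference of 0.68 that both of its probes gave. Smad1, another effector of BMPs, had 1690 and 2510, a log2 difference of -0.01, at the probe that stands for it and 653 and 3740, 3.82-fold higher, at a second probe. Smad9, the remaining BMP effector, had 11.3, not above background, and 61.7, at least 1.48-fold higher. The probes of Smad2 (6.21 and 4.17), Smad6 (5.68 and 3.71) and Smad7 (5.85 and 3.81) were above background on neither array, so these arrays give no difference for the second effector of TGF-beta or for the inhibitory Smads.

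Of the 4 Id genes, Id3 had 815 in MHs and 5110 in Sox9+EpCAM- cells, 4.19-fold higher, at a probe at chr4:135700075-135700249, a span longer than the 60 bases of a probe. Id1 had 89.7 and 397, 2.95-fold higher, and a log2 difference of 0.97 after normexp background correction. Id4 had 280 and 297, a log2 difference of -0.50. Id3 and Id1 were higher and Id4 was near the difference that equal intensities give. The probe of Id2 was above background on neither array (8.30 and 5.72). Id3 was close to the 4-fold line, at a log2 difference of 2.07, and was 1.89 in the deposited table.

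The naming rule also took in 2 genes with another role. Bmp1, a metalloprotease that cleaves procollagens and BMP antagonists, had 3520 and 9530, 1.81-fold higher, but 0.04 and -0.05 on the log2 scale at its other probes. Bmp2k, an intracellular kinase induced by BMP2, had 412 and 276, 2.24-fold lower, and 0.29 at a second probe.

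Different probes of a gene often gave different values. For probes printed at least 8 times, the median SD between spots was 0.08 on the log2 scale on each array, and the 18 members with at least 2 probes that gave a difference had a median range of 1.42 between probes, beside 0.88 over all such genes. The range was over 2 for 3 of these 18 members (16.7%), namely Tgfb2 (5.19), Ltbp1 (4.79) and Acvr1b (2.44). Over all 4916 genes of this kind the share was 19.7%. Smad5 had the narrowest range among the members. No member probe shares 20 bases with a probe of another gene. The plot of single probes shows all 18 genes.

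**Figure D3:**
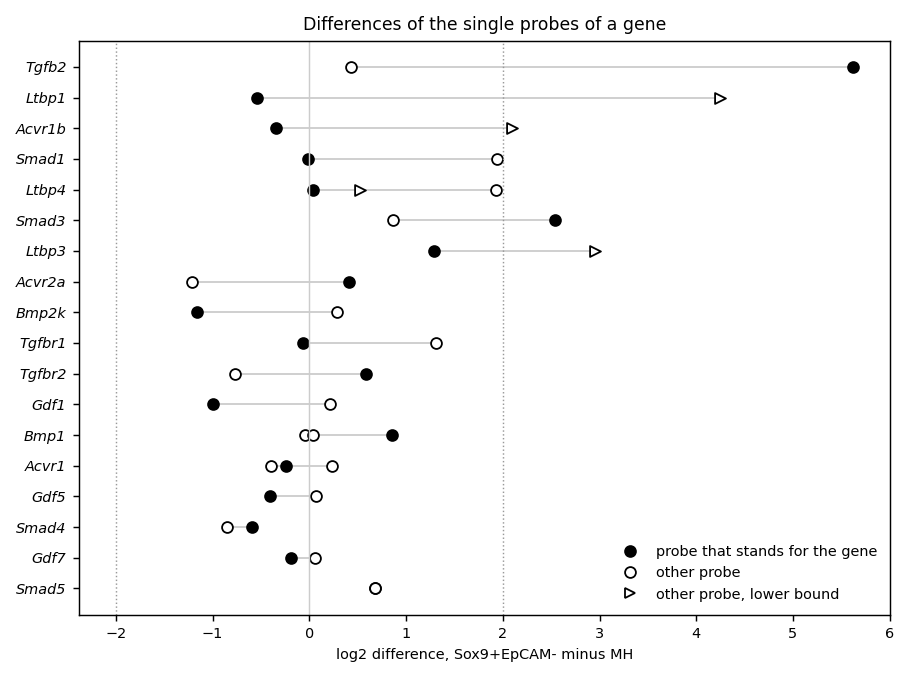
Log2 difference, Sox9+EpCAM- minus MH, of every probe with a difference for the 18 members with at least 2 such probes. Filled points are the probes that stand for the gene, open points are other probes, triangles are lower bounds, and dotted lines mark 4-fold. Tgfb2 spans 0.43 to 5.62, while the points of Smad5 coincide at 0.68.

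The other genes of the pathway number 79, a total that includes target genes of TGF-beta and BMPs. Of the 79, 14 (17.7%) were at least 4-fold higher and 1 (1.27%) at least 4-fold lower, beside 4.34% and 4.32% of all genes. The list of TGF-beta targets gave 8 of the 14 and that of BMP targets gave 1. The median log2 difference was 0.36 over 69. Of 34 antagonists, co-receptors and activators, 4 were higher and 0 lower. This list also holds the ligands Nodal, Mstn and Amh and the receptor Amhr2, which the naming rule did not take in. Fst, which encodes follistatin, the activin-binding inhibitor, had 44.9 in MHs and 1080 in Sox9+EpCAM- cells, 16.1-fold higher. Fbn1, a microfibril protein that anchors latent TGF-beta, had 17.5, not above background, and 1200, at least 28.8-fold higher. Thbs1, an activator of latent TGF-beta, had 6.17, not above background, and 904, at least 21.7-fold higher. Fstl1, a relative of follistatin, had 20.4, not above background, and 201, at least 4.83-fold higher. Itgav, an integrin gene whose product takes part in activating latent TGF-beta, was 1.79-fold higher. Of 15 intracellular regulators, 1 (6.67%) was higher, the coactivator Ep300, with 25.4, not above background, and 192, at least 4.61-fold higher.

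Of 20 genes known as targets of TGF-beta, 8 (40.0%) were at least 4-fold higher and 0 lower, beside 4.34% and 4.32% of all genes, with a median log2 difference of 1.54 over 19 beside -0.12 over all genes. Ctgf, a matricellular protein, had 47.3 in MHs and 10400 in Sox9+EpCAM- cells, 147-fold higher. Cyr61, a relative of Ctgf, had 429 and 30800, 47.9-fold higher. The collagen genes Col3a1, Col1a2 and Col1a1 were 85.1-fold, 15.4-fold and 21.3-fold higher. Jag1, a Notch ligand, was at least 10.4-fold higher, and Snai2, a repressor of epithelial genes, was 4.16-fold higher. Many of these genes also answer to other signals. Of 10 known BMP targets outside the members, 1 was higher and 1 lower, with a median of -0.56 over 8. That median is close to the difference that equal intensities on both arrays give. The Id genes, also targets of BMP receptors, were counted as members and are not in this list. Of them, Id3 was 4.19-fold and Id1 2.95-fold higher, and Id4 had a log2 difference of -0.50. Id2 was above background on neither array. Nr4a1, an orphan nuclear receptor, had 236 and 2930, 8.29-fold higher, and Hamp2, a paralogue of the hepcidin gene, had 110000 and 19900, 8.28-fold lower. The hepcidin gene Hamp had 130000 and 111000, a log2 difference of -0.81.

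Marker lists of liver cell types also differed between the arrays. For comparison with the counts below, 4.34% of all genes were at least 4-fold higher and 4.32% at least 4-fold lower. Of 11 stellate cell and fibroblast markers, 4 were at least 4-fold higher, namely Col1a1, Lum, Eln and Mgp, and the scaled intensity summed over all 11 was 12.2 in MHs and 27.5 in Sox9+EpCAM- cells. Dcn (8080 and 15000), 1.24-fold higher, makes up most of the MH sum. Lrat, which marks quiescent stellate cells, was at least 7.70-fold lower, and Pdgfrb was above background on neither array. Col1a1 and Acta2 stand both in this list and among the TGF-beta targets. Of 10 endothelial markers, 0 were higher and 5 lower, with sums of 8.16 and 2.87 and Lyve1 above background on neither array. Of 10 leukocyte markers, 1 (Cd68) was higher and 5 lower, with sums of 41.9 and 15.7. Csf1r (12200 and 13700), with a log2 difference of -0.42, makes up most of the latter sum. Of 7 cholangiocyte markers, 3 (Spp1, Cldn4 and Epcam) were higher and 0 lower by 4-fold, with sums of 2.48 and 52.4. Spp1 (258 and 47000) makes up most of the latter sum, while Krt7 and Krt19 had log2 differences of -0.23 and 0.42 and Cftr had 69.6 and 52.1. Of the 7 hepatocyte markers, 0 were higher and 1 (Tat) lower by 4-fold, with a median of -1.02 and sums of 1019 and 513. The part of these cell types in the values of Tgfb2, Tgfb3, Gdf2 and the other members was not tested. The plot of the lists sets the members by role beside the other pathway genes and these markers.

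**Figure D4:**
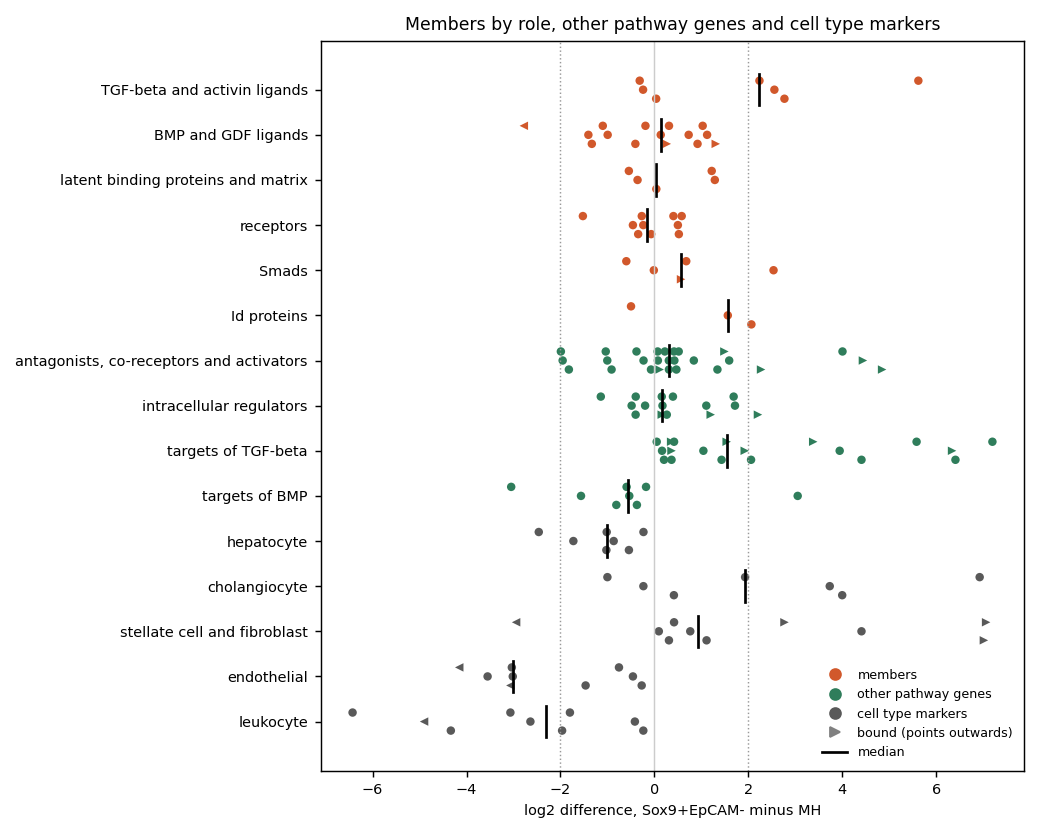
Log2 difference, Sox9+EpCAM- minus MH, of the members by role, of the other pathway genes and of cell type markers. Each point is a gene, triangles are bounds that point outwards, black bars are medians and dotted lines mark 4-fold. TGF-beta and activin ligands have their median at 2.24 and the TGF-beta targets at 1.54, whereas the receptors centre near 0 with -0.15.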

How the data were processed

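The authors deposited, for each of 2 one-colour Agilent arrays, the spot intensity that Feature Extraction 10.7.3.1 wrote after background subtraction, with no normalization between arrays. The deposited series table holds a ratio for each spot, which equals the processed intensity divided by the median of its array (SD of the log2 factor 0.0018). The arrays shared 1 slide and 1 scan, and the service provider's labelling protocol is undisclosed. Probe coordinates are mm9 and promoters GRCm38.p6, and the builds were not mixed.

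Log2 intensities were taken relative to the 75th percentile of the array, without control and outlier spots, and spots of a probe were averaged. Of several probes of a gene, that with the highest mean log2 level was used. Probes below background on 1 array were set to the lowest level well above background there, or to their own if higher, and give a bound. Genes were counted by a size of 4-fold. With 1 array per group nothing was tested, and precision is limited by the number of arrays.

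Every member could be named, with full values for those 4-fold different, those with the highest and lowest level per role and those whose probes differed by over 2 on the log2 scale; other pathway genes were named if 4-fold different. Eng, Hamp, Alb and other genes below 4-fold were chosen once their values were known. The members and lists were chosen with earlier results of these data known. All 58 member names are current RefSeq symbols. Alternatives were normexp (limma 3.58.1, R 4.3.3, offset 50), 3 other scalings, the deposited table, the median of all probes, outlier spots kept, no bound, a 2-fold or 10-fold threshold, and genes restricted to those measured in both samples. The probe with the largest difference, the probe with the highest mean intensity and leaving out probes that share 20 bases were chosen after seeing the data. Python 3.11.15, pandas 2.3.3 and numpy 2.4.6 were used, and the procedure was tested on simulated data. The values of 1 gene of the pathway lists are not reported here. Probe sequences were used only to find stretches of 20 bases shared between probes. Protein sequences and the other assays of the study were not used here.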

Additional observations from a re-analysis of the deposited data

How the results depend on the processing

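The 6 members at least 4-fold higher were 12 at a threshold of 2-fold and 1 at 10-fold, and the 1 lower member became 6 and 0. The count of lower members was also 0 under normexp background correction, where Gdf2 was at -1.45, and among genes above background on both arrays, which leaves Gdf2 out. Normexp left 5 higher members, without Tgfb3 (1.37), and the deposited table also left 5, without Id3 (1.89). The median of all probes kept 6 but exchanged Smad3 (1.70) for Ltbp3 (2.12) and gave Tgfb2 3.03. Without the bound there were 8, with Bmp3 and Gdf10, and with the probe of largest difference 9, with Acvr1b, Ltbp1 and Ltbp3. The probe of highest mean intensity gave 7, with Ltbp1. Inhba (2.51 to 3.04), Inhbe (2.38 to 2.82) and Tgfb2 (3.03 to 5.89) were at least 4-fold higher under all 12 alternatives. Normexp lowered the counts over all genes from 1309 higher and 1304 lower to 612 and 660. Of 559 single-gene values, 530 stayed within 1.5-fold and 29 did not. No 4-fold member changed sign, but smaller differences did, such as Acvr2a (0.41, or -1.21 at its other probe). The causes were not tested. No paired analysis was possible because there is 1 array per group, which also means that neither a slide block nor leaving out an array could be tried. Intensity near background limits the 15 members that were not above it on at least 1 array.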

Other observations

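Some further members lie close together on GRCm38.p6. Acvrl1 and Acvr1b lie 28735 bases apart on chromosome 15, with log2 differences of 0.50 and -0.35, the latter at least 2.10 at its other probe. Tgfbi and Smad5 lie 63650 bases apart on chromosome 13, with -0.36 and 0.68. Acvr1 lies 88541 bases from Acvr1c on chromosome 2, and only Acvr1 was above background, so this pair gives no comparison.

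Base composition varied among the promoters of the members that differed most and have an entry. The 250 bases before the start were 53.6% G and C for Tgfb2, 43.2% for Inhba, 58.8% for Inhbe, 69.2% for Smad3 and 62.8% for Id3, and 50.4% for Gdf2, beside a median of 52.4% over all promoters of the table. Gdf10, the neighbour of Gdf2, had 78.8%.

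A probe that the array design names Bmp2k lies at chr16:24379517-24379576 (mm9), whereas the other Bmp2k probes lie on chromosome 5. It was not above background on either array, at 7.40 and 5.02, and had no part in the values given for Bmp2k.

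Eng, which encodes endoglin, a co-receptor of BMP9 that marks endothelial cells, had 1240 in MHs and 467 in Sox9+EpCAM- cells. At 3.98-fold lower it was just short of 4-fold.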
